A study of Mus musculus with 12 samples.

Results

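The adventitia is the outer coat of an artery, and its fibroblasts make collagen, hyaluronan and other parts of the matrix around the media. They are recognised by surface proteins such as PDGFRα, SCA-1 (Ly6a) and CD34, by secreted proteins such as dermatopontin and tetranectin, and by transcription factors of mesenchymal cells such as PRRX1 and TCF21. The 37 genes described here are adventitial fibroblast genes of these kinds, chosen by symbol, with collagens, elastic fibre genes and leucine-rich proteoglycans left out. They were all found among the 35275 genes of the deposited table, and no member symbol occurred more than once. They comprise 13 surface proteins, 12 secreted matrix proteins, 4 other secreted proteins, 2 hyaluronan synthases and 6 transcription factors.

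mRNA was sequenced from carotid arteries of 10-week-old C57BL/6 mice on standard chow, in 4 groups: the medial layer of Poldip2-/- mice, the medial layer of control mice, the endothelial layer of Poldip2-/- mice and the endothelial layer of control mice. POLDIP2 is a protein first found as a partner of DNA polymerase δ. Poldip2-/- mice lacked exon 4 in every cell from the embryo on, after excision by a Cre transgene of early embryos that was later bred out, and the line goes back to 1 embryonic stem cell clone. Controls were littermates. The endothelial layer is the RNA released when the lumen was flushed with lysis reagent, and the medial layer is the rest of the vessel, which holds the media together with the adventitia. The labels list 2 endothelial and 4 medial samples of each genotype, while the design text gives 4 mice per genotype. The table gave 1 value per group, as FPKM (fragments scaled to gene length and library size), so no value below has a replicate error. Columns of single samples could not be assigned to genotypes from the labels and were not used, so no test was run.

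A log2 ratio here compares 2 group values after adding 1 to each FPKM, and folds and percentages are ratios of the plain FPKM values. A gene was compared when the mean of its 2 FPKM values was at least 1, and it is called higher or lower when its log2 ratio passed 1 in size, which is 2-fold. Because the libraries are bulk RNA, fewer fibroblasts and less RNA per fibroblast cannot be told apart in any of the differences given here.

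Poldip2 itself was at 10.3 FPKM in the Poldip2-/- medial layer, against 35.9 FPKM in controls, and at 8.27 FPKM in the Poldip2-/- endothelial layer, against 21.1 FPKM in controls. The 12 smooth muscle markers summed to 26817 FPKM in the Poldip2-/- medial layer, against 6652 FPKM in controls. The lowest values differ in quality between groups. Olfactory receptor genes, most of which are used in the nose and only a few in vessels, were above 0 in 7.20% of 1097 cases in the Poldip2-/- medial layer and in 93.1% in the control medial layer. Their 95th percentile was 1.53 FPKM in the control medial layer and at most 0.321 FPKM in the other groups. Of the members, Twist2 lay at or below this level in the control medial layer, Tcf21 and Twist2 in the Poldip2-/- endothelial layer, and Has2, Tcf21 and Twist2 in the control endothelial layer.

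Most members were medial layer genes in both genotypes, with a group of exceptions. In Poldip2-/- mice 25 of 32 members compared had higher medial than endothelial values and 2 (Efemp1 and Twist1) had lower ones (background over all genes compared, 14.1% higher and 13.3% lower). In controls 29 of 36 were higher and 1 (Twist1) was lower (background, 20.2% and 12.1%, or 19.0% and 25.1% on the authors' scaled group means). The median log2 ratio of the members, medial over endothelial, was 3.18 in Poldip2-/- mice and 2.57 in controls, and the median over all genes compared was -0.12 in Poldip2-/- mice and 0.10 in controls.

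**Figure D1:**
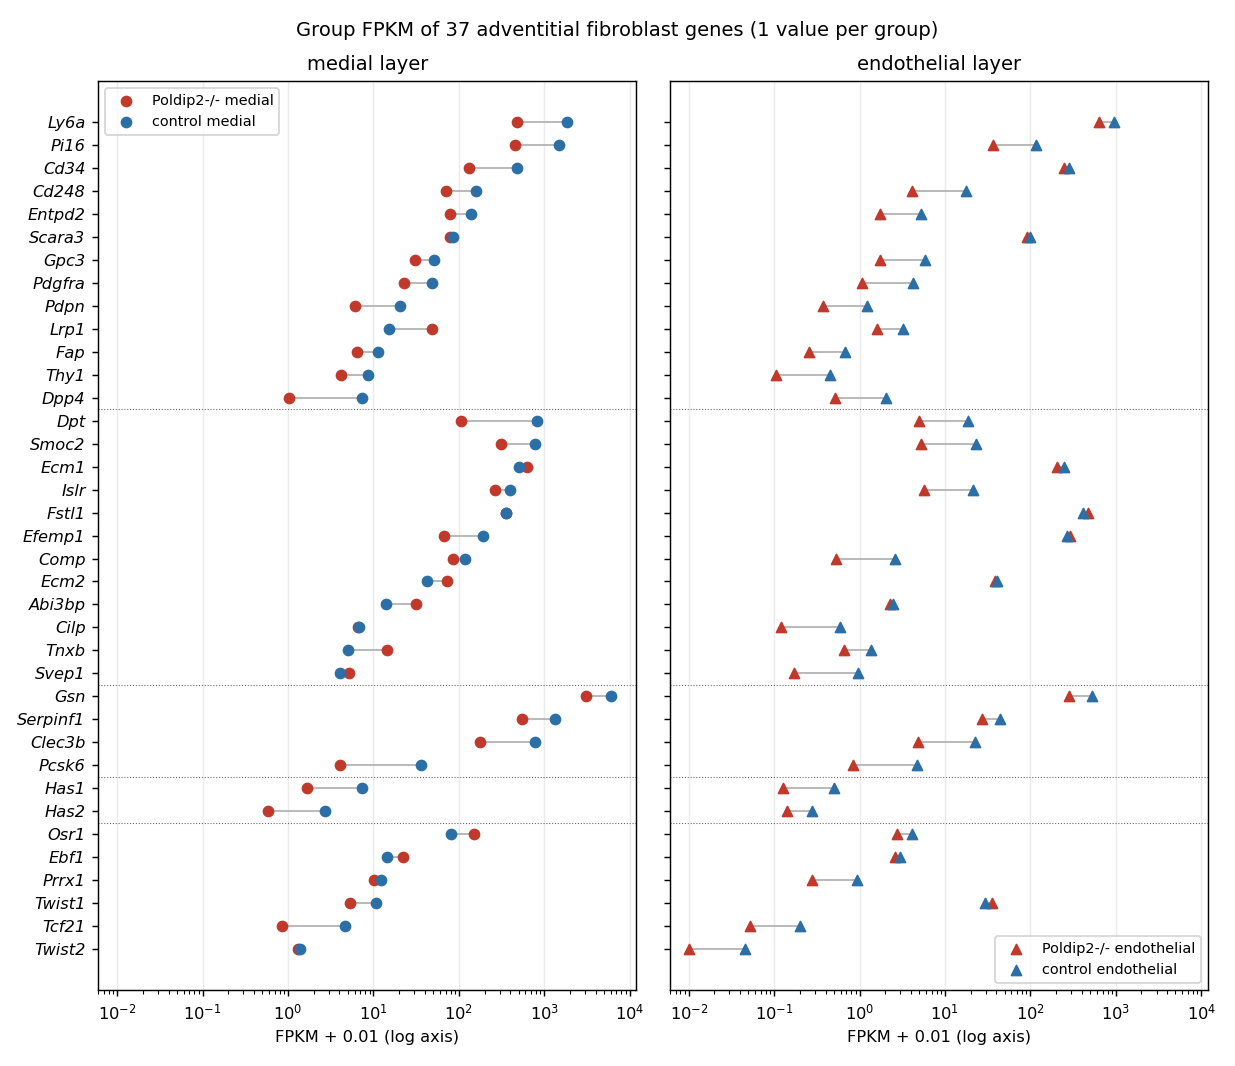
FPKM of each member, plus 0.01 and on a log axis, in the medial layer (circles, left) and the endothelial layer (triangles, right), with Poldip2-/- in red and control in blue, 1 value per group. Rows are grouped, from the top, into surface proteins, secreted matrix proteins, other secreted proteins, hyaluronan synthases and transcription factors. The medial red points lie left of the blue ones for 29 of 37 members and the endothelial ones for 34 of 37. Over all genes compared, 7932 of 13082 were below control in the medial layer and 4780 of 11514 in the endothelial layer.

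The plot of FPKM by layer shows where the members differ most between layers. Comp (cartilage oligomeric matrix protein) had a medial value of 86.5 FPKM and an endothelial value of 0.515 FPKM in Poldip2-/- mice. In controls these were 119 and 2.58 FPKM. A few members behaved otherwise. In controls, 4 members had an endothelial value at least as high as the medial one, namely Efemp1 (fibulin-3), Fstl1 (a secreted glycoprotein), Scara3 (a scavenger receptor) and Twist1 (a bHLH transcription factor). In Poldip2-/- mice Cd34 and Ly6a joined them, which made 6. CD34 and SCA-1 are also made by endothelial cells, so that neither is particular to fibroblasts in an artery. The fibroblast label thus went with the layer for most members but not for these 6. Ecm2 also differed little between layers, with medial values 1.05-fold the endothelial ones in controls and 1.88-fold in Poldip2-/- mice.

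Between genotypes, expression was compared within each layer. In the medial layer 16 of 37 members were lower in Poldip2-/- mice than in controls, 3 were higher and 18 stayed within 2-fold. Over the 13082 genes compared, 14.3% were lower and 7.22% higher (15.1% and 13.4% on the authors' scaled group means). The lower members made up 43.2% of the list and the higher ones 8.11%. The median log2 ratio was -0.89 for the members, against -0.17 for all genes. The members summed to 7318 FPKM in the Poldip2-/- medial layer and 15859 FPKM in controls, which was 1.77% of the FPKM of all genes in Poldip2-/- mice and 3.41% in controls. The 4 most abundant members in controls, Gsn, Ly6a, Pi16 and Serpinf1, carried 67.1% of the control sum. The list did not move as a block, since single members ran over a range from -2.94 for Dpt to 1.64 for Lrp1.

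**Figure D2:**
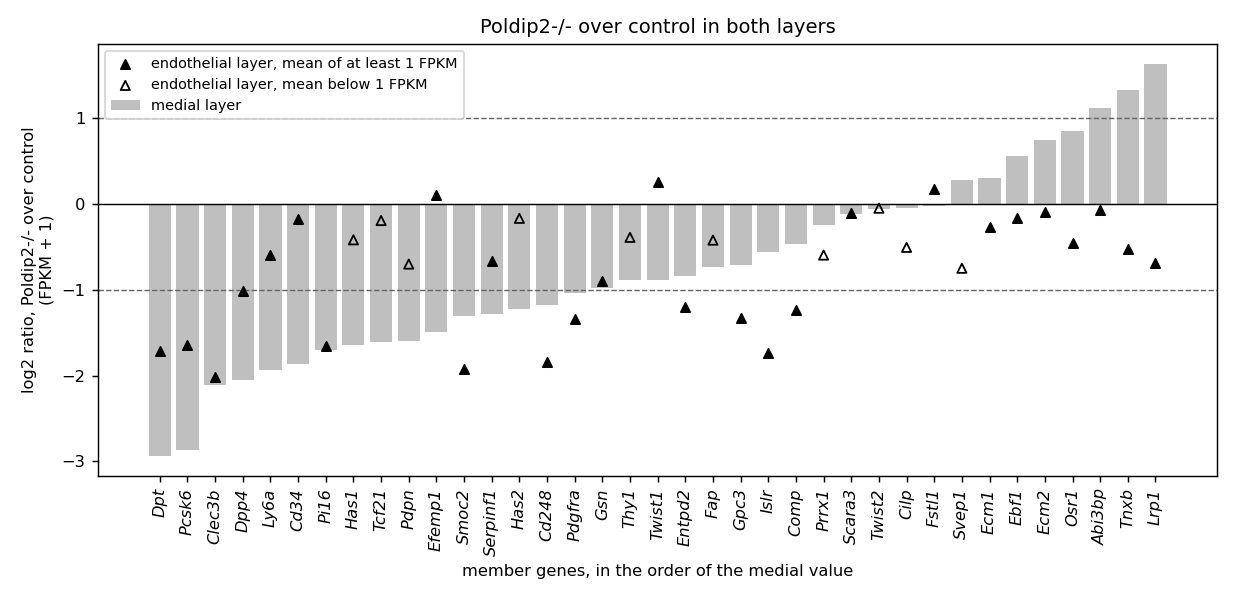
Log2 ratio of FPKM after adding 1, Poldip2-/- over control, for the 37 members in the order of their medial value. Bars give the medial layer, triangles the endothelial layer (open where the mean was below 1 FPKM), and dashed lines mark 2-fold. Medial bars run from -2.94 for Dpt to 1.64 for Lrp1, while no endothelial triangle passes 2-fold upwards.

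Of the 13 surface proteins, 7 (53.8%) were lower in the Poldip2-/- medial layer, 1 (7.69%) was higher and 5 were within 2-fold. Over all genes compared, 14.3% were lower and 7.22% higher, so the higher share was near that of all genes. The median log2 ratio of the surface proteins was -1.04. The most abundant of them was Ly6a, a small protein on a lipid anchor, at 477 FPKM in the Poldip2-/- medial layer and 1829 FPKM in controls. Pi16, a peptidase inhibitor that marks a fibroblast state found in many tissues, was at 454 FPKM in Poldip2-/- and 1482 FPKM in control mice. Cd34, a sialomucin, was at 131 FPKM in Poldip2-/- and 480 FPKM in control mice. All 3 were thus 3.27- to 3.83-fold lower in Poldip2-/- mice. Dpp4 (CD26), a peptidase that removes dipeptides from secreted peptides, was further down at 1.03 FPKM in Poldip2-/- mice, against 7.41 FPKM in controls, a 7.20-fold difference at a low level. Pdpn (podoplanin), a mucin-type protein also made by lymphatic endothelium, was at 6.12 FPKM in Poldip2-/- and 20.5 FPKM in control mice.

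The general fibroblast receptor moved less than these markers. Pdgfra, the receptor for platelet-derived growth factor, was at 22.9 FPKM in the Poldip2-/- and 48.3 FPKM in the control medial layer. Cd248 (endosialin), a lectin-like receptor of stromal cells, was at 70.4 FPKM in Poldip2-/- and 161 FPKM in control mice. Their log2 ratios of -1.04 and -1.18 passed 2-fold narrowly, and on the authors' scaled group means neither did. Entpd2, which breaks down extracellular ATP, was at 77.9 FPKM in Poldip2-/- and 140 FPKM in control mice. Gpc3 (glypican-3), a heparan sulphate proteoglycan, was at 30.5 FPKM in Poldip2-/- and 50.6 FPKM in control mice. Both were within the threshold on the log2 scale. The same held for Fap (fibroblast activation protein), a protease related to DPP4, at 6.47 FPKM in Poldip2-/- and 11.4 FPKM in control mice, and for Thy1 (CD90), at 4.19 FPKM in Poldip2-/- and 8.61 FPKM in control mice. By plain FPKM Thy1 was 2.06-fold lower, and its log2 ratio passed the threshold when 0.1 was added in place of 1. Scara3 differed by 1.08-fold, at 78.6 FPKM in Poldip2-/- and 85.0 FPKM in control mice.

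Lrp1 was the only surface protein that was higher. This large endocytic receptor, which smooth muscle cells make as well, was at 49.1 FPKM in the Poldip2-/- medial layer and 15.1 FPKM in controls, a 3.25-fold difference. It stood at 1.61 FPKM in the Poldip2-/- and 3.20 FPKM in the control endothelial layer, 1.99-fold below control by plain FPKM and within 2-fold on the log2 scale, at -0.69. Over the 37 members, it had the largest gap between the log2 ratios of the layers, 2.32 units medial minus endothelial. The 12 smooth muscle markers were all higher in the Poldip2-/- medial layer, with a median log2 ratio of 2.38, and what part of the Lrp1 value came with them was not tested.

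Among the 12 secreted matrix proteins the values spread in both directions, with 3 lower (25.0%), 2 higher (16.7%) and 7 within 2-fold. The shares over all genes compared were 14.3% lower and 7.22% higher. The median log2 ratio of the matrix proteins was -0.04. Dpt (dermatopontin), which binds decorin and collagen fibrils, was at 106 FPKM in the Poldip2-/- medial layer and 820 FPKM in controls. This was 7.72-fold lower and the largest difference of any member on the log2 scale. Smoc2, a calcium-binding matrix protein, was at 314 FPKM in Poldip2-/- and 780 FPKM in control mice. Efemp1 was at 66.8 FPKM in Poldip2-/- and 189 FPKM in control mice, while its endothelial values of 290 FPKM in Poldip2-/- and 270 FPKM in control mice differed by 1.08-fold.

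On the other side stood Tnxb and Abi3bp. Tnxb (tenascin-X), which joins collagen fibrils in loose connective tissue, was at 14.2 FPKM in Poldip2-/- and 5.05 FPKM in control mice, 2.82-fold higher. Abi3bp, a matrix protein that binds cells, was at 31.4 FPKM in Poldip2-/- and 14.0 FPKM in control mice, 2.25-fold higher. The Tnxb gene overlaps Cyp21a2-ps on the opposite strand in the table, and the library kit was not stated to keep strand, so reads of the pair cannot be told apart. Ecm2, a matrix protein related to the leucine-rich proteoglycans, was at 72.0 FPKM in Poldip2-/- and 42.5 FPKM in control mice, and Ecm1, a secreted glycoprotein, at 624 FPKM in Poldip2-/- and 507 FPKM in control mice. Both lay above control without passing 2-fold.

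The remaining matrix proteins were closer together. Islr (meflin) was at 268 FPKM in the Poldip2-/- and 397 FPKM in the control medial layer. Fstl1 was at 352 FPKM in Poldip2-/- and 358 FPKM in control mice. Cilp (cartilage intermediate layer protein) was at 6.61 FPKM in Poldip2-/- and 6.85 FPKM in control mice. Svep1, a very large adhesion protein, was at 5.16 FPKM in Poldip2-/- and 4.09 FPKM in control mice. With Comp these 5 spanned log2 ratios of -0.57 to 0.28. Fstl1 and Cilp differed by less than 1.04-fold, while Islr was 1.48-fold and Comp 1.38-fold lower.

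The 4 other secreted proteins were all below control. Gsn (gelsolin), an actin-severing protein that is also secreted and that muscle makes as well, was the most abundant member, at 3046 FPKM in the Poldip2-/- medial layer and 6013 FPKM in controls, just within 2-fold. Serpinf1 (pigment epithelium-derived factor), an inhibitor of vessel growth, was at 543 FPKM in Poldip2-/- and 1319 FPKM in control mice. Clec3b (tetranectin), which binds plasminogen, was at 178 FPKM in Poldip2-/- and 773 FPKM in control mice, 4.34-fold lower. Pcsk6 (PACE4), a convertase that activates secreted proproteins, had the largest ratio of plain FPKM, at 4.03 FPKM in Poldip2-/- and 35.7 FPKM in control mice, 8.86-fold lower.

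Both hyaluronan synthases were lower at low levels. Has1 was at 1.65 FPKM in the Poldip2-/- medial layer and 7.26 FPKM in controls, and Has2 at 0.576 FPKM in Poldip2-/- and 2.69 FPKM in control mice. Has2 overlaps its antisense gene Has2os, and its control value lay not far above the olfactory receptor level of 1.53 FPKM given above, whose part in the difference was not tested.

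Of the 6 transcription factors 1 was lower (16.7%, near the 14.3% of all genes compared). Tcf21, which takes part in the making of fibroblasts of the heart and coronary arteries, was at 0.846 FPKM in the Poldip2-/- medial layer and 4.65 FPKM in controls. The most abundant, Osr1, a zinc finger protein of connective tissue progenitors, went the other way, at 149 FPKM in Poldip2-/- and 82.0 FPKM in control mice. It was within 2-fold on FPKM and past 2-fold on the authors' scaled group means and after centring on the median gene. Ebf1, a factor shared with B cells and fat cells, was at 21.9 FPKM in Poldip2-/- and 14.5 FPKM in control mice. Prrx1, a homeobox factor of limb and connective tissue mesenchyme, was at 10.1 FPKM in Poldip2-/- and 12.2 FPKM in control mice. Twist1 was at 5.28 FPKM in Poldip2-/- and 10.6 FPKM in control mice, and Twist2, its close relative, at 1.28 and 1.37 FPKM in the same groups. By plain FPKM Twist1 was 2.01-fold lower, while its log2 ratio of -0.89 was within 2-fold. The transcription factors thus summed to 188 FPKM in Poldip2-/- mice and 125 FPKM in controls, with Osr1 making the difference, while the surface proteins summed to 1409 FPKM in Poldip2-/- mice and 4339 FPKM in controls.

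The endothelial layer showed another order. Of 27 members with enough signal, 12 were lower in Poldip2-/- mice, none was higher and 15 were within 2-fold. Over the 11514 genes compared in this layer only 1.44% were lower and 0.434% higher. The median log2 ratio was -0.69 for the members and 0.05 for all genes. Counting differences of any size, 24 of the 27 members were below control, against 4780 of the 11514 genes. With the members under the minimum included, 34 of 37 were below control, the exceptions being Efemp1, Fstl1 and Twist1. The members summed to 2405 FPKM in the Poldip2-/- and 3187 FPKM in the control endothelial layer.

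The 12 genes that were lower in the endothelial layer were, apart from Pi16, at or below 22.9 FPKM there in controls. Tnxb, Abi3bp, Ebf1, Lrp1 and Osr1 had 1.36 to 4.08 FPKM in the control endothelial layer and stayed within 2-fold on the log2 scale. Adding 1 makes log2 ratios at this level smaller. By plain FPKM Tnxb was 2.14-fold and Lrp1 1.99-fold lower in Poldip2-/- mice. The part of level in these calls was not tested. Clec3b was at 4.82 FPKM in the Poldip2-/- endothelial layer and 22.6 FPKM in controls. Smoc2 was at 5.28 FPKM in Poldip2-/- and 22.9 FPKM in control mice. Cd248 was at 4.15 FPKM in Poldip2-/- and 17.5 FPKM in control mice. All 3 were also lower in the medial layer. Dpt was at 4.97 FPKM in Poldip2-/- and 18.6 FPKM in control mice. Islr was at 5.60 FPKM in Poldip2-/- and 21.0 FPKM in control mice. These 5 were 3.73- to 4.70-fold lower, although Islr was within 2-fold in the medial layer. Pi16 was the most abundant of the 12, at 36.7 FPKM in Poldip2-/- and 118 FPKM in control mice.

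The other 6 were under 6 FPKM in both genotypes. Comp had values of 0.515 FPKM in Poldip2-/- and 2.58 FPKM in control mice. Pcsk6 had 0.831 FPKM in Poldip2-/- and 4.74 FPKM in control mice. Dpp4 had 0.509 FPKM in Poldip2-/- and 2.05 FPKM in control mice. Of these 3 only Comp was within 2-fold in the medial layer. Pdgfra was at 1.07 FPKM in Poldip2-/- and 4.25 FPKM in control mice. Gpc3 had 1.72 FPKM in Poldip2-/- and 5.82 FPKM in control mice. Entpd2 had 1.73 FPKM in Poldip2-/- and 5.29 FPKM in control mice. Over the 6 genes the differences were 3.05- to 5.70-fold.

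By contrast 7 members with control endothelial values of 29.4 to 963 FPKM differed less. Level alone did not set these 7 apart. In controls Gsn was at 530 FPKM and Pi16 at 118 FPKM, and they were 1.86- and 3.21-fold lower in Poldip2-/- mice. Ly6a was at 636 FPKM in the Poldip2-/- endothelial layer and 963 FPKM in controls. Cd34 had 249 FPKM in Poldip2-/- and 282 FPKM in control mice. Fstl1 had 467 FPKM in Poldip2-/- and 415 FPKM in control mice. The first pair of these was far lower in the medial layer, and Fstl1 was not. Ecm1 was at 205 FPKM in Poldip2-/- and 247 FPKM in control mice. Scara3 had 92.5 FPKM in Poldip2-/- and 99.9 FPKM in control mice. Ecm2 had 38.2 FPKM in Poldip2-/- and 40.7 FPKM in control mice. Twist1, a regulator of mesenchymal cells, was slightly above control, at 35.5 FPKM in Poldip2-/- and 29.4 FPKM in control mice. These 7 genes stayed within 1.51-fold of control.

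Besides Efemp1 and Lrp1, given above, another 6 members also stayed within 2-fold. Gsn was at 285 FPKM in the Poldip2-/- and 530 FPKM in the control endothelial layer. Serpinf1 had 27.4 FPKM in Poldip2-/- and 43.8 FPKM in control mice. Both were below control in the medial layer as well, Serpinf1 past 2-fold. Abi3bp had 2.27 FPKM in Poldip2-/- and 2.45 FPKM in control mice. Ebf1 had 2.56 FPKM in Poldip2-/- and 2.98 FPKM in control mice. Osr1 had 2.71 FPKM in Poldip2-/- and 4.08 FPKM in control mice. These 3 were above control in the medial layer and below it here. Tnxb, at 0.639 FPKM in Poldip2-/- and 1.36 FPKM in control mice, was 2.14-fold lower by plain FPKM. Its log2 ratio of -0.53 stayed within 2-fold, and on the authors' scaled group means it passed 2-fold.

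The 10 members below the minimum in the endothelial layer were Has1, Has2, Pdpn, Tcf21, Cilp, Svep1, Fap, Thy1, Prrx1 and Twist2. Their highest values were those of Pdpn, at 0.362 FPKM in Poldip2-/- and 1.21 FPKM in control mice. All 10 were below control in Poldip2-/- mice, and Twist2 was listed at 0 there.

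The members were also grouped by how much of their medial signal they showed in the endothelial layer. Of the 37 members, 22 had an endothelial FPKM under 20% of their medial FPKM in both genotypes. All 22 were below control in the Poldip2-/- endothelial layer, 14 of them were compared and 10 passed 2-fold. Of the other 15 members, 2 passed 2-fold downwards, namely Pcsk6 and Dpp4. The choice of the 22 used the same endothelial values, so the count is in part built in and is only a description. The share over all genes with so low an endothelial value was not counted. The median endothelial FPKM as a percentage of medial was 5.65% in Poldip2-/- mice and 8.82% in controls over 35 members, and for the 12 smooth muscle markers it was 1.16% in Poldip2-/- mice and 2.78% in controls. For the smooth muscle markers themselves the Poldip2-/- endothelial sum was 531 FPKM, against 188 FPKM in controls. The carry-over of outer layers into the lumen flush was not measured, and its part in the endothelial differences was not tested.

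Set side by side over the 27 members compared in both layers, 8 were lower in both (29.6%, against 0.943% of the 10920 genes compared in both layers), namely Clec3b, Pcsk6, Dpt, Smoc2, Cd248, Dpp4, Pdgfra and Pi16. Pi16 had nearly the same log2 ratio in the medial layer, -1.71, as in the endothelial layer, -1.66, and so had Clec3b, with -2.11 and -2.02. Serpinf1, Efemp1, Cd34 and Ly6a were lower in the medial layer and within 2-fold in the endothelial layer (14.8%, against 7.54% of all genes). Comp, Islr, Entpd2 and Gpc3 were lower in the endothelial layer and within 2-fold in the medial layer (14.8%, against 0.531%). Abi3bp, Tnxb and Lrp1 were higher in the medial layer and within 2-fold in the endothelial layer (11.1%, against 5.96%). No member was called in opposite directions in the layers. Whether any of these differences between layers exceeds the spread between animals was not tested.

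Gene length went with the medial values. Over all 13082 genes compared, the median medial log2 ratio was -0.73 for genes of up to 1000 bases and 0.43 for those over 8000 bases. Spearman's rho between length and log2 ratio was 0.36 across these genes and 0.45 across the 37 members, which all come from the same 2 group values and are no replicates of each other. For endothelial values rho was -0.25 across 11514 genes and 0.12 across 27 members.

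**Figure D3:**
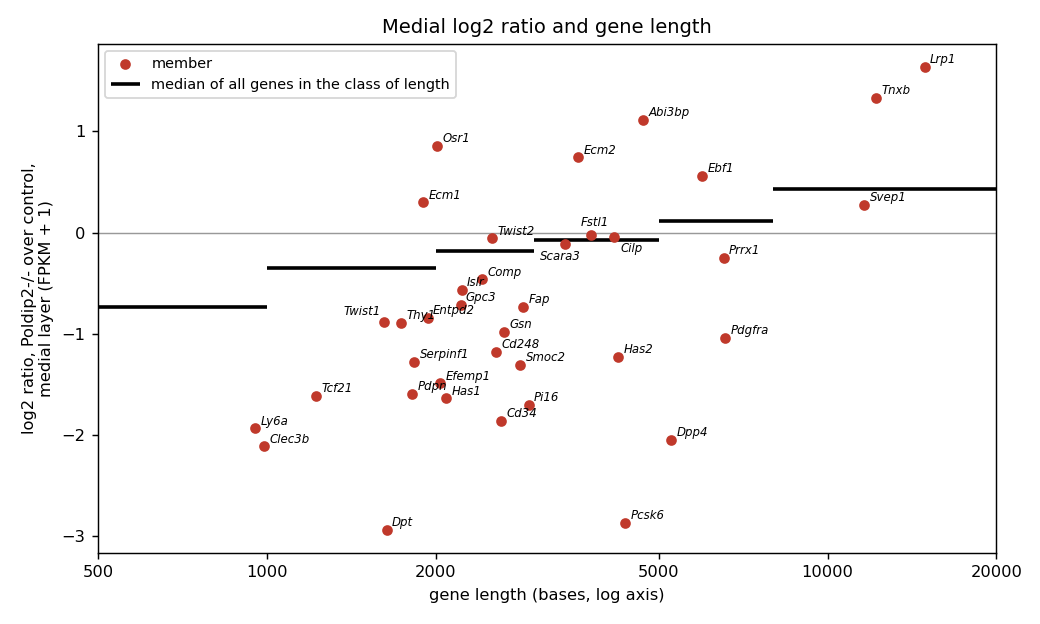
Medial log2 ratio of FPKM after adding 1, Poldip2-/- over control, against gene length in bases on a log axis for the 37 members (red points). Black lines give the median of all genes in each class of length, from -0.73 for genes of up to 1000 bases to 0.43 for those over 8000 bases. Lrp1 and Tnxb lie at the long end and above 1, while Pcsk6 and Dpp4 lie far below the line of their class.

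In the plot of log2 ratio against length, the longest members were Lrp1 (14888 bases), Tnxb (12209 bases) and Svep1 (11629 bases), with log2 ratios of 1.64, 1.33 and 0.28. The shortest were Ly6a (955 bases) and Clec3b (990 bases), both of them lower. Length did not order all members. Pcsk6 and Dpp4, with 4354 and 5268 bases, were among the lowest, and Osr1 and Ecm1, with 2010 and 1900 bases, lay above control. After log2 ratios were centred within bins of gene length, 15 of the 16 lower members remained below 2-fold, with Serpinf1 lost, and Lrp1 and Abi3bp remained above it, with Tnxb lost and Osr1 gained. The part of length in the other values was not tested.

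Genes of other cells moved in the same medial libraries. A list of 32 further fibroblast genes that are not members gave 16 lower and none higher of 30 compared, with a median log2 ratio of -1.06. The lower ones made 53.3%, against 14.3% of all genes compared. The largest differences were in Procr (the protein C receptor), at 16.9 FPKM in Poldip2-/- and 82.3 FPKM in control mice, and Mgst1 (a glutathione transferase), at 82.3 FPKM in Poldip2-/- and 379 FPKM in control mice. Ugdh, which makes the UDP-glucuronate that hyaluronan synthases use, followed at 40.3 FPKM in Poldip2-/- and 175 FPKM in control mice. These 3 genes were named for their rank in the list. Procr was higher in the endothelial layer, at 226 FPKM in Poldip2-/- and 271 FPKM in control mice. Of the 30 further fibroblast genes compared between layers, 8 had lower medial than endothelial values in Poldip2-/- mice (26.7%, against 13.3% of all genes). In controls these were 5 (16.7%, against 12.1%).

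The leukocyte markers were lower in 13 of 14 cases compared, with a median log2 ratio of -1.54, and summed to 1092 FPKM in the Poldip2-/- medial layer and 4793 FPKM in controls. Of 10 fat cell markers 9 were lower and 1 (Ucp1, the uncoupling protein of brown fat) was higher, with a median of -1.77 and sums of 754 FPKM in Poldip2-/- and 3038 FPKM in control mice. Of the 5 red blood cell genes 3 were lower, with sums of 972 FPKM in Poldip2-/- and 2308 FPKM in control mice. Of 11 endothelial markers compared 4 were lower and 1 was higher (36.4% and 9.09%, against 14.3% and 7.22% of all genes compared). Of 4 Schwann cell markers compared 1 was lower, and of 6 mesothelial markers the 1 that could be compared, Krt19, was lower. Thus most leukocyte and fat cell markers were lower together with the fibroblast genes, the Schwann cell markers were split with 2 below and 2 above control, and the smooth muscle markers were higher. How much outer tissue stayed on each artery is not given in the sources used here, and its part in the fibroblast values was not tested. No leukocyte or fat cell marker was listed at 0 in the Poldip2-/- medial layer, where Lyz2 was at 461 FPKM and Cfd at 405 FPKM, against 2500 and 1932 FPKM in controls.

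**Figure D4:**
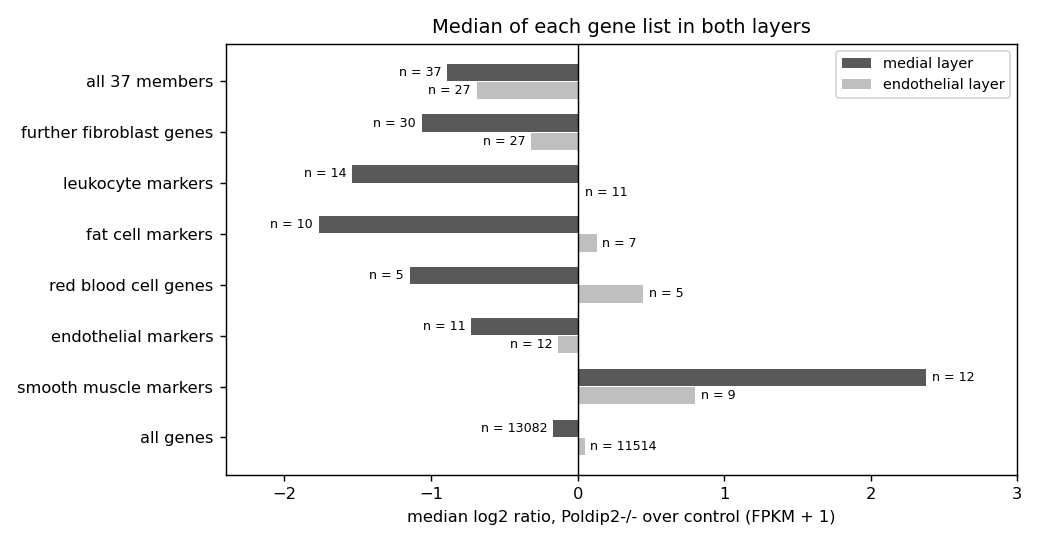
Median log2 ratio of FPKM after adding 1, Poldip2-/- over control, of each gene list in the medial (dark) and endothelial (light) layer, with n the number of genes compared. In the medial layer the members stand at -0.89, the further fibroblast genes at -1.06, the leukocyte markers at -1.54, the fat cell markers at -1.77 and the smooth muscle markers at 2.38. In the endothelial layer the members have the lowest median of these lists, -0.69.

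The plot of list medians also gives the endothelial layer. There, of 11 leukocyte, 7 fat cell, 5 red blood cell, 4 Schwann cell and 12 endothelial markers compared, none was called in either direction, in a layer where 1.44% of all genes were lower. The leukocyte markers still summed to 99.6 FPKM in the Poldip2-/- endothelial layer and 155 FPKM in controls, with 5 below and 6 above control. The macrophage markers among them made this difference. Lyz2 was at 42.5 FPKM in Poldip2-/- and 83.9 FPKM in control mice, Csf1r at 2.07 FPKM in Poldip2-/- and 4.38 FPKM in control mice, and C1qa at 4.59 FPKM in Poldip2-/- and 8.25 FPKM in control mice. The fat cell markers summed to 94.9 FPKM in Poldip2-/- and 71.2 FPKM in control mice. The further fibroblast genes were lower in 9 of 27 cases and higher in none, with a median log2 ratio of -0.32. They were led by Fbln1 (fibulin-1), at 4.49 FPKM in Poldip2-/- and 18.1 FPKM in control mice, Sema3c (a secreted semaphorin), at 1.12 FPKM in Poldip2-/- and 5.58 FPKM in control mice, and Ccl11 (eotaxin), at 3.82 FPKM in Poldip2-/- and 13.8 FPKM in control mice. The smooth muscle markers were higher in 4 of 9 cases, against 0.434% of all genes, with a median of 0.80. What part of the endothelial fibroblast values went with the macrophage or smooth muscle markers was not tested.

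The members lie on 18 chromosomes, and only Dpp4 and Fap, which encode related proteases, are close neighbours, 88711 bases apart on chromosome 2 with 3 genes of the table between them. They differed in the medial layer, where Dpp4 was 7.20-fold and Fap 1.76-fold lower. A total of 13 members overlap a gene on the opposite strand of the deposited table, among them Lrp1, Dpp4, Cd34 and Pcsk6, and their values may hold reads of that partner.

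Promoters were read for 26 of the 37 members from RefSeq (GRCm38.p6), as 29 windows of 250 bases before to 50 bases after a start. The median GC content was 54.3% in these windows and 52.7% over all 32851 promoters, and the median number of CpG pairs was 7 in both. The 250 bases before the start are printed for 2 members with large negative and for 2 with the largest positive medial ratios, to show how unlike they are in sequence. The windows are chr1:164796413-164796662 on the plus strand for Dpt, chr2:62412232-62412481 on the minus strand for Dpp4, chr10:127621149-127621398 on the minus strand for Lrp1 and chr17:34670285-34670534 on the plus strand for Tnxb. Capitals mark letters of the motifs searched.
Dpt: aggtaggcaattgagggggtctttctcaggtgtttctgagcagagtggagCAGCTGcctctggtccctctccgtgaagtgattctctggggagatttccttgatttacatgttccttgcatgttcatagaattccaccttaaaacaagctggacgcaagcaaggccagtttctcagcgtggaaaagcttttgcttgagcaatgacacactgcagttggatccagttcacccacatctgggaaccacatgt
Dpp4: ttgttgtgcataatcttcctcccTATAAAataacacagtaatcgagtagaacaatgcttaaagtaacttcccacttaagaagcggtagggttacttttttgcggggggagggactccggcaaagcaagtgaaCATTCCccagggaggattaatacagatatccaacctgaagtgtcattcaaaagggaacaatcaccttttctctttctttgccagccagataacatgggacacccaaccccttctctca
Lrp1: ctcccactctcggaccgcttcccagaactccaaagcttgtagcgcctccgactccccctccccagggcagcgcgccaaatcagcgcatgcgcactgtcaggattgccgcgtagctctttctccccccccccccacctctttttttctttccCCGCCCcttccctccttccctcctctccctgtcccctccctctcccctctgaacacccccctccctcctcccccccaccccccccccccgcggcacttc
Tnxb: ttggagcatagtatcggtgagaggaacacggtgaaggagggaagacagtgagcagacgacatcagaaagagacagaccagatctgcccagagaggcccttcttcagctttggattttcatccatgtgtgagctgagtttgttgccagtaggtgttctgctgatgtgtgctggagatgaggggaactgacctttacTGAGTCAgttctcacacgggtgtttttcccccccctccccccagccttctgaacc

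Motifs were searched on both strands of the whole windows, namely TATAAA (the TATA box), TGANTCA (the AP-1 site), GGAATG (the TEAD site), GGGCGG (the Sp1 site) and CAGCTG (an E-box). Their shares in member promoters and in all promoters were 17.2% and 13.6% for TATAAA, 13.8% and 7.81% for TGANTCA, 13.8% and 14.7% for GGAATG, 48.3% and 35.7% for GGGCGG, and 24.1% and 16.3% for CAGCTG. In the printed stretches, Dpt held CAGCTG, Dpp4 held TATAAA and, on its other strand, GGAATG, Lrp1 held GGGCGG on its other strand, and Tnxb held TGANTCA. The Lrp1 stretch was 67.2% GC with 13 CpG pairs, while those of Dpt, Dpp4 and Tnxb were 48.8%, 43.6% and 52.4% GC with 3, 4 and 4 pairs. Pcsk6 is not printed, although its medial log2 ratio of -2.87 was below that of Dpp4. Its stretch was 81.2% GC with 40 pairs, so the printed stretches do not stand for all lower members. In the 50 bases after the start, which are not printed, Dpt also held TATAAA. A match is a description of letters, not of binding.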

How the data were processed

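Carotid RNA of both layers was selected on poly-T beads and sequenced in pairs of reads. The authors' methods name TopHat on a Bowtie index for alignment and DESeq2 for comparisons, while edgeR 3.16.5, STAR-Fusion, STAR 2.5 and HTSeq 0.6.1 stand in the submitters' processing notes with no role given. The deposited FPKM, 1 value per group and gene, are fragments scaled to gene length and library size, and how the authors combined replicates is not given in the sources used here. The methods name mm9, but all 37 members overlap their GENCODE gene of GRCm38 on the same strand, 27 with the same start or end. The authors also deposited scaled group means (a score per pairwise comparison, read here as an alternative scale only), gene lengths, and fold changes, p-values and adjusted p-values, which were not used. Another 24 columns hold single samples under animal numbers that the labels tie to no genotype. They were not used, so depth, replicate spread and the planned count tests with DESeq2 and edgeR are not given, and the precision of each FPKM is unknown.

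Groups were taken from the labels. Log2 ratios of FPKM after adding 1 were called past 2-fold where the mean FPKM of both groups was at least 1, and the same was done for all genes as background. The members and the 8 lists of other genes were chosen with earlier results of these data known. All members are named. Of every other list at most the 3 genes with the largest log2 ratio are named. The exceptions are Poldip2 as the targeted gene and Ucp1, Krt19, Lyz2, Cfd and Cd68, named after their values were seen. The alternatives were a pseudocount of 0.1, no minimum FPKM, thresholds of 1.5-fold and 4-fold, centring on the median gene or within 20 bins of gene length, the scaled group means, and protein-coding genes only. Computations used matplotlib 3.10.9, scipy 1.17.1, pandas 2.3.3 and numpy 2.4.6 in Python 3.11.15 and were tested on simulated data.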

Additional observations from a re-analysis of the deposited data

How the results depend on the processing

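No paired analysis was possible because the group columns carry no replicate. Leaving out replicates, DESeq2 and edgeR were not run for the same reason, so how far any value depends on 1 animal is unknown. At a 1.5-fold threshold the members higher in the Poldip2-/- medial layer numbered 5, against 3 at 2-fold. The share over all genes compared moved as well, to 14.4%, against 7.22% at 2-fold. At a 4-fold threshold 4 were lower and 0 higher in the Poldip2-/- medial layer (2.29% and 1.31% of all genes compared). At that threshold 1 was lower in the Poldip2-/- endothelial layer (0.208%), and 0 had a lower medial than endothelial value in controls (3.85%). Every other count, under these thresholds and the 6 other alternatives, stayed within 1.5 times its value, and no called log2 ratio changed sign. Cd248 and Pdgfra lost the medial call on the scaled group means, Pdgfra after centring on the median gene, Serpinf1 and Tnxb after centring by gene length, and Dpp4 its endothelial call after centring by length. The scaled group means moved the median of all genes by 0.19 (log2) in the medial layer and by -0.39 between the layers of controls. On that scale the members gave 14 lower and 4 higher in the Poldip2-/- medial layer, where 15.1% of all genes were lower and 13.4% higher. A pseudocount of 0.1 moved the medial log2 ratio of Tcf21 to -2.33, of Dpp4 to -2.73 and of Has2 to -2.05.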
